A study of Mus musculus with 14 samples.

Results

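The imprinted growth regulators described here were *Cdkn1c*, *Igf2*, *H19*, *Peg3*, *Dlk1*, *Mest*, *Plagl1*, *Grb10* and *Igf2r*, 9 of the 27962 gene names on the array, measured by 17 of its 41174 probes. Probes were taken where the array's gene name equals one of these symbols and the probe is no control. The genes were chosen by their family and by a measured value, the higher *Cdkn1c* signal in K314/315R cells, so every comparison with K314/315R is given as a description and was not tested.

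An imprinted gene is expressed mainly from the copy inherited from a single parent, and many imprinted genes set how much an embryo and its placenta grow. In the mouse, *Igf2*, *Dlk1*, *Mest*, *Peg3* and *Plagl1* are read from the paternal copy, and *Cdkn1c*, *H19*, *Igf2r* and, in most tissues, *Grb10* from the maternal copy. Several of these genes belong to a network of embryonic growth genes that are turned down in most tissues after birth.

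The study asked how acetylation of p65, a subunit of the transcription factor NF-κB, affects gene expression at 3 h of TNFα. All cells were *p65*(-/-) NIH 3T3 mouse embryonic fibroblasts (MEFs) that had been infected with a lentivirus, selected with blasticidin and kept as pools of cells, so each line is 1 stable pool and not a set of independent clones. The lines carried wild type p65, the double mutant K314/315R, in which lysines 314 and 315 are changed to arginine, the triple mutant KTR, in which lysine 310 is changed as well, or the empty vector pTV and therefore no p65. After starvation overnight, TNFα was added to every line at 30 ng/ml, and RNA was taken 3 h later. A further set of wild type cultures was left untreated (0 h). Each group had 3 arrays, except K314/315R with 2, which makes 14 arrays.

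All 10 fibroblast markers were well above background on all 14 arrays, and none of 5 endothelial markers was on any array. *Krt19* of the epithelial list and *Cd3e* of the haematopoietic list were well above background on all arrays, *Cdh1*, *Epcam*, *Ptprc* and *Itgam* on none. Slides 1 to 3 each held 1 array of the 4 other groups, whereas slide 4 held both K314/315R arrays, so slide 4 and the K314/315R line cannot be told apart. The 7 spike-in probes had a median log2 signal of 4.01 and 4.28 on the slide 4 arrays and of 2.30 to 3.19 on the others. Mouse *Rela*, which encodes p65, has 2 probes, and the brighter had a log2 signal of 1.00 to 1.34 in pTV cells and of 1.52 to 1.54 in wild type cells at 3 h. Since this probe was well above background in cells without p65, it does not check the labels.

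The values below are log2 signals minus that of the 75th percentile of the array, so 0 is the brightness that 75% of the probes do not exceed. Levels are compared between groups for 1 probe at a time and never between probes. Differences were tested with limma, and a probe was called at an adjusted p under 0.05 together with a fold over 2 for wild type over pTV, or over 1.8 for the other comparisons. Of the 17 probes, 12 probes for 8 genes were bright enough to be tested. In bulk RNA, fewer cells that express a gene and less RNA per cell cannot be told apart.

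*Peg3*, a paternally expressed zinc finger gene, was near or below the detection limit. Its brightest probe was well above background on 2 of 14 arrays, KTR replicate 1 with -2.87 and wild type 0 h replicate 1 with -2.96, and lay between -7.48 and -5.70 on the others. Its other 2 probes were well above background on no array, so *Peg3* was not tested. The 2 dimmer probes of *Grb10* were each well above background on 1 of 14 arrays and were not tested either.

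Sequence is shown for the promoters of *Dlk1* and *Plagl1*, the called members that the promoter table holds, and of 2 neighbours of *Dlk1* on chromosome 12, *Meg3* and *Dio3*, because p65 acts through κB sites in DNA. Each run holds the 250 bases before a transcription start listed by RefSeq (build GRCm38.p6), read 5′ to 3′ on the strand of the gene. Capitals mark matches to the 10-base κB consensus or to TATAAA, searched on both strands. The windows lie at chr12:109452573-109452822 (*Dlk1*), chr10:13090582-13090831 (*Plagl1*), chr12:109540746-109540995 (*Meg3*, the first of 2 windows) and chr12:110278980-110279229 (*Dio3*), all on the plus strand.
Dlk1: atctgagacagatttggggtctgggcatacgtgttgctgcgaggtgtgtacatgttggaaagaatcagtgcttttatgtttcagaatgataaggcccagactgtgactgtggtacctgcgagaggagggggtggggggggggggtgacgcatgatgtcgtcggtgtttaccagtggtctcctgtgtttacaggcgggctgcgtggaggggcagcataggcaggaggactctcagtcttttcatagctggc
Plagl1: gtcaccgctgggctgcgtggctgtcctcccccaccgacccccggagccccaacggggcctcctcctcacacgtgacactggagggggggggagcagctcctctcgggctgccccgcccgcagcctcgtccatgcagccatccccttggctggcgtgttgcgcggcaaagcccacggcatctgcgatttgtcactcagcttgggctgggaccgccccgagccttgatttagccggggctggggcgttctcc
Meg3: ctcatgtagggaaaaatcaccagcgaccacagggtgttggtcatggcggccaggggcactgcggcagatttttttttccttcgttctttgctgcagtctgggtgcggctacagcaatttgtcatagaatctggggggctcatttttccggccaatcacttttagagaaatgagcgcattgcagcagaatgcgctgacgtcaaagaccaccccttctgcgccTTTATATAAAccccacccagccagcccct
Dio3: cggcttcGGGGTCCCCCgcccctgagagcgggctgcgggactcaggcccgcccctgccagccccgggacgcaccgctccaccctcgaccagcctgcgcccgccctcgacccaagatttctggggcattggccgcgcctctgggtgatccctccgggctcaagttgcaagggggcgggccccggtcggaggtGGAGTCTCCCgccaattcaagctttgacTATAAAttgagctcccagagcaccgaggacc

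The *Dio3* window held 2 κB matches, both read on the minus strand, at 243 to 234 and at 59 to 50 bases before the start, and 1 TATAAA at 31 to 26 bases before it. The *Meg3* window held 2 overlapping TATAAA matches, 1 on each strand. Of 32851 windows of 250 bases in the reference table, 3.9% held a κB match and 12.4% held TATAAA. None of the windows of the 7 members in that table held a κB match or TATAAA, and *Cdkn1c* and *H19* were not in it. The windows of *Rian*, *Mirg* and *Asb4* and the second window of *Meg3* were searched as well. They held no match either and are not shown, so the windows shown are not a fair sample of those searched. No match says only that these letters are absent from these bases. The *Plagl1* window was rich in CpG, with 19 against a median of 6 over all windows, and the *Dlk1* window had 8.

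**Figure D1:**
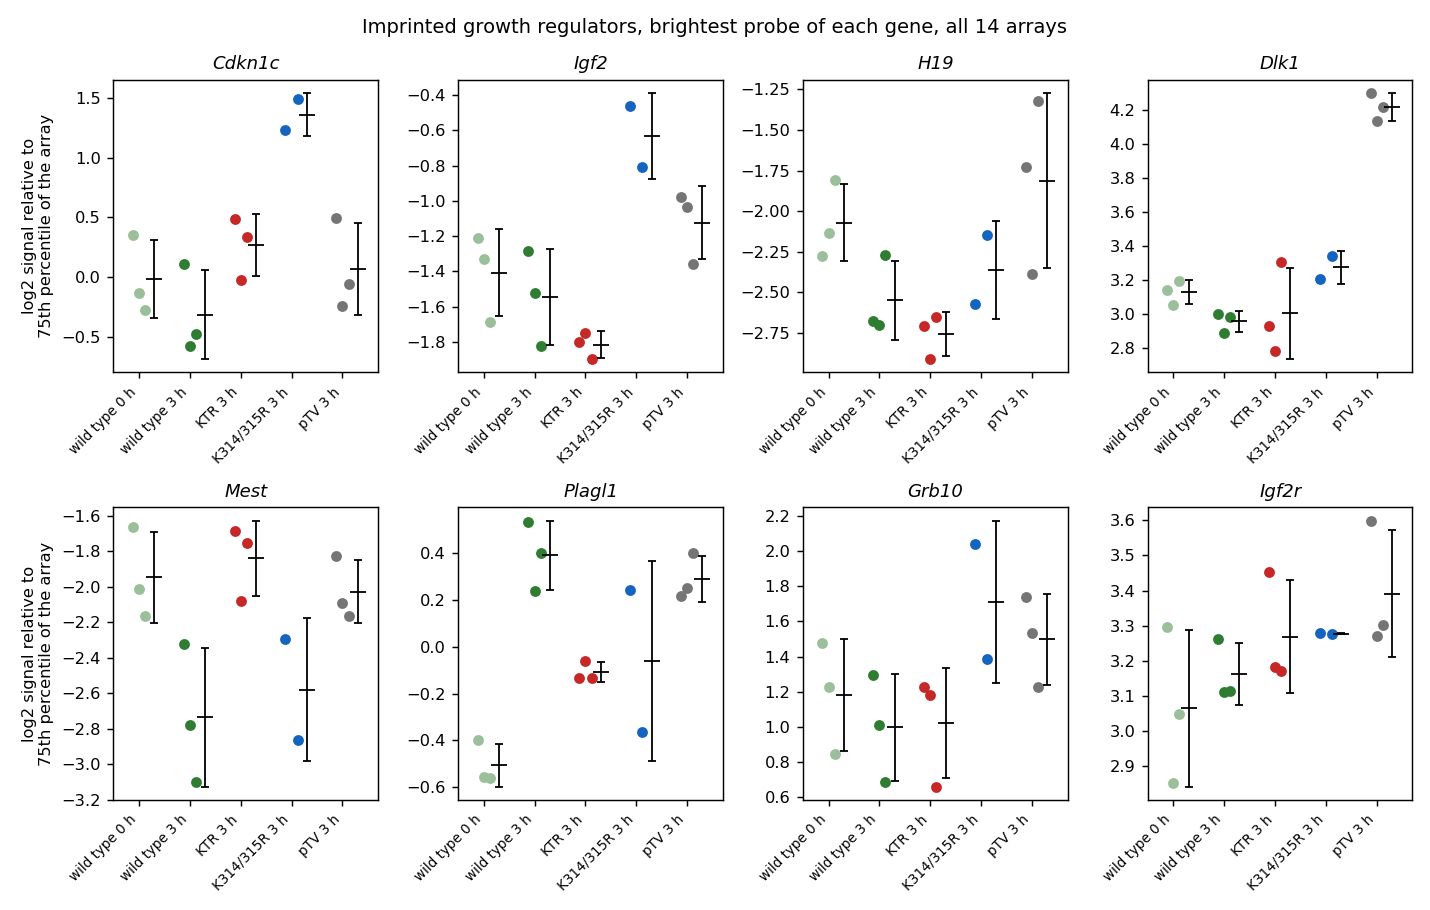
Log2 signal minus that of the 75th percentile of the array (vertical axes, with a scale of their own in each panel) for the brightest probe of 8 members in the 5 groups. Each point is 1 array, and the bar beside the points is the mean with its SD (n = 3, and n = 2 for K314/315R). *Cdkn1c* lies at 1.23 and 1.49 in K314/315R cells and at 0.50 or lower elsewhere, and *Dlk1* lies at 4.13 or higher in pTV cells and at 3.34 or lower elsewhere.

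*Cdkn1c* encodes p57Kip2, an inhibitor of cyclin-dependent kinases that restrains cell division. Its single probe gave 1.23 and 1.49 in K314/315R cells, against 0.11, -0.57 and -0.47 in wild type cells at 3 h. In KTR cells it gave 0.49, -0.02 and 0.34, and in pTV cells 0.50, -0.24 and -0.05. Both K314/315R arrays were therefore above all 12 others, among which the groups overlapped.

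The mean was 3.18-fold higher in K314/315R than in wild type cells at 3 h, 2.45-fold higher than in pTV cells and 2.13-fold higher than in KTR cells. On the log2 scale the difference from wild type was 1.67, and it ranged from 1.53 to 1.88 over other ways of processing and without any single array. These are the values that the genes were chosen by, and they rest on 2 arrays of a slide of their own. The order of the group means was K314/315R (1.36 ± 0.18, SD, n = 2), KTR (0.27 ± 0.26, SD, n = 3), pTV (0.07 ± 0.38, SD, n = 3), wild type at 0 h (-0.01 ± 0.33, SD, n = 3) and wild type at 3 h (-0.31 ± 0.37, SD, n = 3). Apart from the step down from K314/315R, neighbours in this order differed by less than their spread.

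*Cdkn1c* was called in none of the comparisons without K314/315R. The log2 difference was 0.58 ± 0.24 (SE) in KTR over wild type cells, with a 95% confidence interval of 0.05 to 1.11 and an adjusted p of 0.482 over all probes by limma. It was -0.38 in wild type over pTV (adjusted p = 0.369 by limma), 0.20 in KTR over pTV (adjusted p = 0.65) and -0.30 with TNFα (adjusted p = 0.622). With single arrays left out, these ranged from -0.59 to -0.16, from 0.05 to 0.42 and from -0.51 to -0.11. KTR over wild type then ranged from 0.45 to 0.79. Within slides 1, 2 and 3, KTR over wild type was 0.38, 0.55 and 0.81, and wild type over pTV was -0.39, -0.33 and -0.42. With the slide as a block in a fit of slides 1 to 3 alone, the adjusted p by limma was 0.0337 and 0.0261, and only the fold limits of 1.8 and 2 were not met. With the replicate block over all 14 arrays it was 0.163 and 0.154. The related inhibitors *Cdkn1a* (p21) and *Cdkn1b* (p27) were also not called in these comparisons. *Cdkn1a* had a difference of 0.42 in wild type over pTV with an adjusted p of 0.0333 by limma, which was under 2-fold.

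Of 19850 tested probes that have another gene name, those most like the *Cdkn1c* probe over the 14 arrays were for *Wipi2* (Pearson's r = 0.950), *Kctd10* (0.932), *Ncln* (0.918), *Gps1* (0.901) and *Arl5a* (0.899). Over the 12 arrays without K314/315R the r for these 5 was 0.782 to 0.892. Among the members, *Igf2* had r = 0.631 over 14 arrays and 0.145 over 12, while *Mest* had 0.102 over 14 and 0.842 over 12. These are descriptions, since arrays of a group and of a slide share their source and 1 scaling factor per array.

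**Figure D2:**
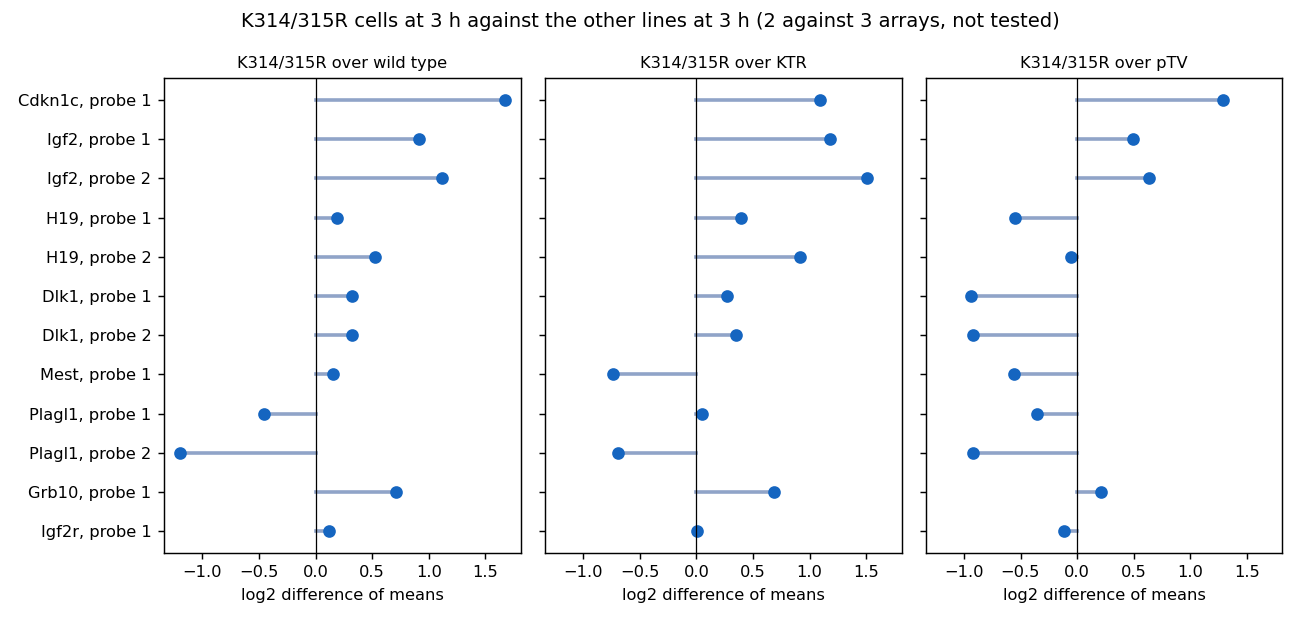
Log2 difference of group means (horizontal axes) between K314/315R cells and wild type, KTR or pTV cells at 3 h for the 12 probes bright enough to be tested, each point being 1 probe. *Cdkn1c* is at 1.67, 1.09 and 1.29, both *Igf2* probes are to the right of 0 in all panels, and both *Dlk1* probes are above wild type and below pTV.

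*Igf2*, the fetal growth factor that acts through the IGF1 and insulin receptors, was measured by 2 probes. Probe 1 is spotted 10 times on each array, and the SD of its log2 signal over these spots was 0.04 to 0.14. It gave -0.46 and -0.81 in K314/315R cells, -1.29, -1.52 and -1.83 in wild type cells at 3 h, and -1.21, -1.33 and -1.68 in wild type cells at 0 h. In KTR cells it gave -1.80, -1.75 and -1.90, and in pTV cells -0.98, -1.04 and -1.36. On this probe the K314/315R arrays were the highest of all, and the KTR arrays were below all pTV arrays.

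In K314/315R cells the *Igf2* mean was 1.88-fold (probe 1) and 2.17-fold (probe 2) that in wild type cells, 2.27-fold and 2.85-fold that in KTR cells, and 1.41-fold and 1.55-fold that in pTV cells. On probe 2 the K314/315R arrays gave -2.21 and -2.90 and overlapped with pTV, which gave -2.65, -3.09 and -3.82. The log2 difference from wild type was 0.91 and 1.12, but 0.61 and 0.24 with normexp background correction of the raw signals. In KTR over pTV cells, probe 1 was 1.61-fold lower, by -0.69 ± 0.17 (SE, adjusted p = 0.0154 by limma), which did not reach 1.8-fold. Probe 2 was 1.83-fold lower there with an adjusted p of 0.0798 by limma, and passed the test with the replicate number as a block (adjusted p = 0.00503). It was well above background on only 1 of 3 KTR arrays, so its folds against KTR rest on values near the detection limit. In wild type over pTV cells the differences were -0.42 and -0.49, under 2-fold, and the arrays overlapped across slides. Within slides 1, 2 and 3 the differences were -0.31, -0.49 and -0.47 on probe 1, and -0.84, -0.34 and -0.28 on probe 2. The adjusted p by limma was 0.13 and 0.366, and at lowest 0.00647 and 0.0582 over the alternatives. With TNFα the difference was -0.14 on both probes.

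*H19*, the maternally expressed non-coding RNA next to *Igf2*, fell in KTR over pTV cells on both of its probes. Probe 1 gave -2.71, -2.91 and -2.65 in KTR cells and -1.73, -2.39 and -1.32 in pTV cells. Probe 2 gave -4.22, -4.62 and -4.12 in KTR cells and -3.20, -3.77 and -3.10 in pTV cells. In KTR cells probe 2 was well above background on only 1 of 3 arrays, so its fold and its call rest on values near the detection limit. The lines did not overlap on either probe, and pTV replicate 2 lay closest to the KTR arrays on both.

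The fold was 1.93 on probe 1 (-0.95 ± 0.24 on the log2 scale, SE, adjusted p = 0.0194 by limma) and 1.95 on probe 2 (-0.97 ± 0.25, SE, adjusted p = 0.023). Both calls were lost without KTR replicate 2, pTV replicate 1 or pTV replicate 3, where the adjusted p was 0.056 to 0.0879, and with normexp (0.397 and 0.822). That of probe 1 was also lost with only the groups compared (0.0915), and that of probe 2 without a filter on dim probes (0.053). Wild type cells at 3 h gave -2.68, -2.70 and -2.27 on probe 1, which overlapped with pTV. Their difference from pTV was -0.74 (adjusted p = 0.0617 by limma), and without pTV replicate 2, the lowest pTV array, it was -1.03 and called (adjusted p = 0.00668). With TNFα in wild type cells the difference was -0.48 on probe 1 (adjusted p = 0.351 by limma) and -0.39 on probe 2 (adjusted p = 0.498), lower within each of slides 1 to 3 on both probes, and it turned to 0.16 and 0.51 with normexp. In K314/315R cells probe 1 gave -2.58 and -2.15, within the range of wild type at 3 h and pTV together.

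*Dlk1* encodes a membrane protein with EGF repeats that is known as preadipocyte factor and holds back adipocyte differentiation. Among the tested members it had the lowest adjusted p in both comparisons with pTV. Probe 1 gave 4.30, 4.13 and 4.21 in pTV cells, 3.00, 2.89 and 2.98 in wild type cells at 3 h, and 3.14, 3.05 and 3.19 in wild type cells at 0 h. It gave 2.93, 2.78 and 3.30 in KTR cells and 3.21 and 3.34 in K314/315R cells. All pTV arrays were above all 11 arrays of cells that carry p65, with or without TNFα.

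In wild type over pTV cells at 3 h, *Dlk1* fell 2.39-fold on probe 1 (-1.26 ± 0.12 on the log2 scale, SE, adjusted p = 1.54e-05 by limma) and 2.36-fold on probe 2 (adjusted p = 0.000117). Within slides 1, 2 and 3 the difference on probe 1 was -1.30, -1.24 and -1.23. In KTR over pTV cells it fell 2.31-fold on probe 1 (adjusted p = 2.79e-05 by limma) and 2.41-fold on probe 2 (0.000115). The probe 1 call in KTR over pTV was lost with normexp (-1.08, adjusted p = 0.0546). KTR and wild type cells differed by 0.05 on probe 1, with a 95% confidence interval of -0.22 to 0.31, and by -0.03 on probe 2, and TNFα gave -0.17 and -0.06. K314/315R cells lay 1.92-fold and 1.90-fold below pTV cells.

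The summed log2 signal of 5 adipocyte markers moved the other way, with 0.53 to 0.94 in pTV cells, 1.16 to 1.60 in wild type cells at 3 h, 1.47 to 1.74 in KTR cells, 1.98 in both K314/315R arrays and 1.51 to 1.97 in wild type cells at 0 h. Of these 5, *Fabp4* and *Pparg* were well above background on all arrays, and *Adipoq*, *Lep* and *Plin1* on none. Their part in the *Dlk1* difference was not tested. The sum of 5 skeletal muscle markers reached 1.13 on 1 pTV array and was -0.32 or lower in the other groups, with *Myog*, *Des*, *Ckm* and *Myh3* well above background on no array, and its part was not tested either. The sum of 5 haematopoietic markers was -1.66 to -0.46 in pTV cells and -2.00 to -1.75 in wild type cells at 3 h, and that of 5 epithelial markers -0.25 to 0.22 and -0.53 to -0.26, with KTR cells overlapping pTV on both (-1.73 to -0.87 and -0.41 to -0.09). Their part was not tested.

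**Figure D3:**
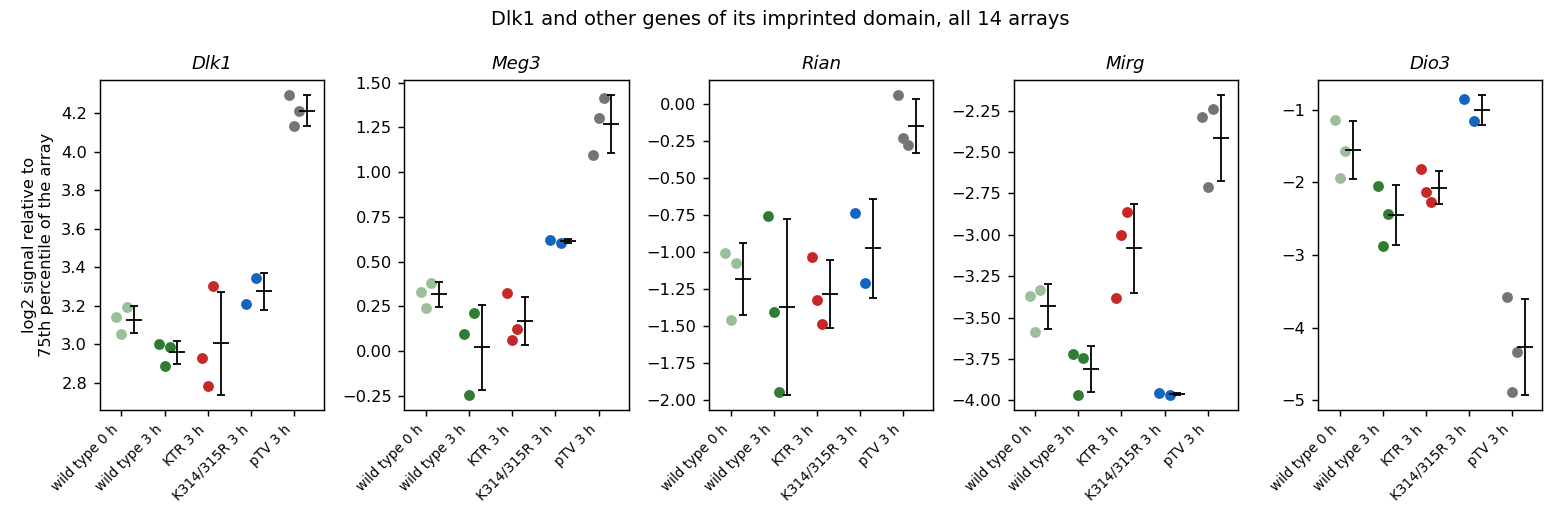
Log2 signal minus that of the 75th percentile of the array (vertical axes, with a scale of their own in each panel) for *Dlk1* and the other genes of its imprinted domain that were called in any tested comparison, with 1 point per array and the mean and SD beside each group. In pTV cells *Dlk1*, *Meg3*, *Rian* and *Mirg* are higher than in the cells that carry p65, and *Dio3* is lower.

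*Dlk1* lies in an imprinted domain with *Meg3*, *Rian* and *Mirg*, which are maternally expressed non-coding RNAs, and with paternally expressed *Dio3*, whose enzyme inactivates thyroid hormone. *Meg3* (*Gtl2* on the array) gave 1.09, 1.30 and 1.41 in pTV cells, 0.10, -0.24 and 0.21 in wild type cells at 3 h, and 0.32, 0.06 and 0.12 in KTR cells. It fell 2.38-fold in wild type over pTV cells (adjusted p = 2.59e-05 by limma) and 2.14-fold in KTR over pTV cells (adjusted p = 9.07e-05). *Mirg* fell 2.63-fold in wild type over pTV cells (adjusted p = 5.41e-05 by limma). Its difference in KTR over pTV cells was 1.59-fold (adjusted p = 0.0122), under the 1.8-fold limit. *Rian*, chosen after its values were seen, fell 2.34-fold and 2.20-fold in these comparisons. All pTV arrays were above all wild type and KTR arrays for each of these RNAs.

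*Dio3* moved in the opposite direction. It gave -3.57, -4.89 and -4.34 in pTV cells, -2.05, -2.87 and -2.43 in wild type cells at 3 h, -1.82, -2.13 and -2.27 in KTR cells, -0.86 and -1.15 in K314/315R cells, and -1.15, -1.95 and -1.57 in wild type cells at 0 h. The pTV arrays were the lowest, and 1 of the 3 was not well above background. *Dio3* rose 3.52-fold in wild type over pTV cells (adjusted p = 0.00176 by limma) and 4.57-fold in KTR over pTV cells (adjusted p = 0.000491). With TNFα its difference was -0.90 (adjusted p = 0.153 by limma), or 1.86-fold, and it was lower at 3 h on each of slides 1 to 3. With the replicate number as a block, 1 of the other imprinted genes was called with TNFα. *Dio3* was the only tested gene among them to differ over 1.8-fold there. Both comparisons with pTV share the pTV arrays, so they are no independent repeats of each other.

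*Mest*, a paternally expressed gene for a protein of the hydrolase fold, was lowest in wild type cells after TNFα. It gave -2.32, -2.78 and -3.10 in wild type cells at 3 h and -1.66, -2.01 and -2.17 at 0 h. In KTR cells it gave -1.69, -2.08 and -1.76, in pTV cells -1.83, -2.09 and -2.16, and in K314/315R cells -2.30 and -2.87. The wild type arrays at 3 h were below all arrays of wild type at 0 h, KTR and pTV, and overlapped with K314/315R.

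The log2 difference of *Mest* in KTR over wild type cells was 0.89 ± 0.22 (SE), or 1.86-fold, with an adjusted p of 0.161 by limma. With the replicate number, which is also the slide, as a block, it passed the test (adjusted p = 0.0108). In wild type over pTV cells the difference was -0.71 (adjusted p = 0.0474 by limma), under 2-fold. With TNFα it was -0.79 (adjusted p = 0.0644 by limma, and 0.0042 with the block), under 1.8-fold, and without wild type 3 h replicate 1 it was -0.99 and called (adjusted p = 0.0354). Under normexp these values shrank, to 0.30 in KTR over wild type and to -0.13 with TNFα.

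*Plagl1* (Zac1), a zinc finger transcription factor known for regulating other imprinted genes, was the only member called with TNFα in wild type cells. Probe 1 gave 0.54, 0.24 and 0.40 at 3 h and -0.40, -0.56 and -0.56 at 0 h. It gave -0.13, -0.06 and -0.13 in KTR cells, 0.22, 0.25 and 0.40 in pTV cells, and 0.24 and -0.36 in K314/315R cells. The 3 h arrays of wild type and pTV cells overlapped, and the KTR arrays lay below both. There were no untreated arrays of pTV, KTR or K314/315R cells, so whether *Plagl1* rises with TNFα in them was not tested.

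*Plagl1* rose 1.87-fold with TNFα (0.90 ± 0.14 on the log2 scale, SE, adjusted p = 0.00302 by limma), and by 0.94, 0.80 and 0.96 within slides 1, 2 and 3. Without wild type 3 h replicate 1 the rise was 0.83 and under 1.8-fold, and with normexp it was 0.78 with an adjusted p of 0.159. In wild type over pTV cells the difference was 0.10 (adjusted p = 0.731 by limma). In KTR it was -0.50 over wild type (adjusted p = 0.23) and -0.40 over pTV (adjusted p = 0.0782), with no overlap of arrays in either. Probe 2 was well above background on 6 of 14 arrays and passed the filter only through wild type cells at 3 h, and its difference with TNFα was 0.69 (adjusted p = 0.534).

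The remaining members act on IGF signalling at the receptor. *Grb10*, an adaptor that dampens signalling by the insulin and IGF1 receptors, gave 2.04 and 1.39 in K314/315R cells and 0.69 to 1.29 in wild type cells at 3 h. It was 1.64-fold higher in K314/315R over wild type cells, by 0.71 on the log2 scale, with 0.39 without K314/315R replicate 1 and 1.04 without replicate 2. It was 1.16-fold higher than in pTV cells, which gave 1.74, 1.53 and 1.22 and overlapped with K314/315R, as did wild type cells at 0 h with 1.48, 1.23 and 0.85. *Igf2r*, the receptor that takes up Igf2 and sends it to lysosomes, gave 2.85 to 3.60 over all 14 arrays, with 3.28 on both K314/315R arrays. Neither gene was called in a tested comparison. The widest difference was -0.50 for *Grb10* in wild type over pTV cells, with a 95% confidence interval of -1.02 to 0.02. The fit behind this interval leaves out the pairing of arrays by slide. Within slides 1, 2 and 3 the difference was -0.44, -0.52 and -0.54. Over the alternatives its lowest adjusted p by limma was 0.00061, and that in KTR over pTV was 0.000874. Only the fold limits were not met there.

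**Figure D4:**
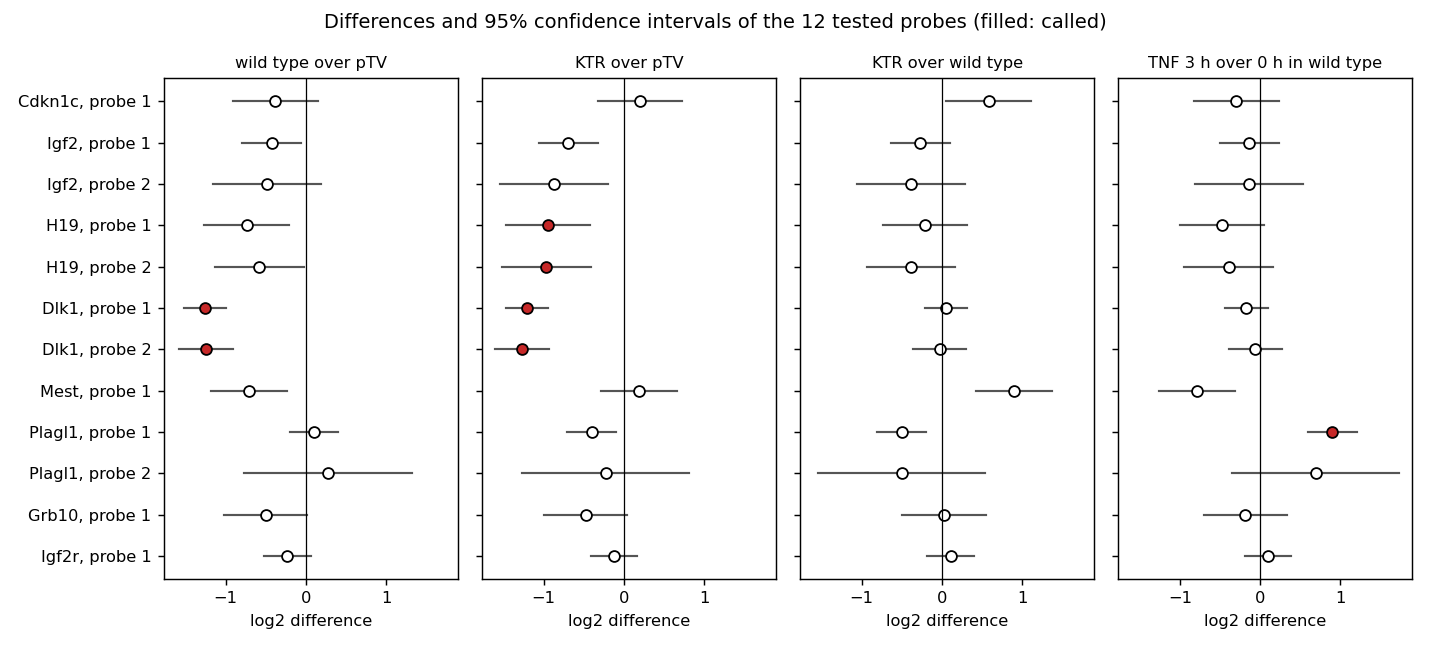
Log2 difference (horizontal axes) with its 95% confidence interval for the 12 tested probes in the comparisons without K314/315R, from 1 limma fit over 14 arrays. Filled points passed the adjusted p and the fold limit. They are *Dlk1* in wild type over pTV, *Dlk1* and *H19* in KTR over pTV, and *Plagl1* probe 1 with TNFα.

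Counted over the 12 tested probes, 2 were called in wild type over pTV, both *Dlk1* and both lower, where 5.04% of all tested probes were called and 1.46% were lower. In KTR over pTV 4 were called, all lower, where 6.01% of all tested probes were called and 1.95% were lower. With TNFα 1 was called, higher, where 1.55% were called and 1.12% were higher. In KTR over wild type limma called 0 of the 12, against 0.167% of all tested probes, and 1 of them, *Mest*, passed at an unadjusted p under 0.05 with the same fold limit. These counts rest on few genes, since probes of the same gene are not independent.

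The arrays of the groups did not overlap for 4 of the 12 probes in wild type over pTV (34.5% of all tested probes), for 2 in KTR over wild type (14.2%), for 7 in KTR over pTV (28.6%) and for 3 with TNFα (30.4%). All 7 in KTR over pTV were lower in KTR. For K314/315R the number was 8 over wild type (36.2% of all tested probes), 5 over pTV (49.6%) and 8 over KTR (30.8%). Each of these K314/315R counts includes *Cdkn1c*, the gene whose K314/315R value led to the choice of the members. The count over wild type also includes *Plagl1* probe 2, which passed the filter only through wild type cells at 3 h. The 12 probes also stand for only 8 genes, so the K314/315R counts are no test against the shares. The median log2 difference of the 12 probes was -0.49 in wild type over pTV and -0.58 in KTR over pTV, and that of all tested probes was -0.03 and 0.02.

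Of 56 other imprinted genes, 38 were tested. In wild type over pTV cells 2 were called higher and 6 lower, where 3.58% of all tested probes were higher and 1.46% lower. In KTR over pTV cells 1 was called higher and 6 lower, where 4.06% were higher and 1.95% lower. The called genes are not independent, since *Meg3*, *Rian*, *Dio3* and, in wild type over pTV, *Mirg* share the *Dlk1* domain. With normexp the counts of called genes fell to 1 and 2 in all, and to 5 and 3 where every array had to be well above background. In KTR over wild type 1 was lower (2 without KTR replicate 1, and 4 without a filter on dim probes). With TNFα limma called 0, 1 at an unadjusted p under 0.05 (*Dio3*), and 1 with the replicate number as a block. *Phlda2*, a maternally expressed gene that limits placental growth, was well above background on all pTV arrays and on no array of the other groups, and was at least 1.73-fold lower in wild type and at least 1.11-fold lower in KTR than in pTV cells. It passed the filter only through pTV, the group where it is high, so it is among the genes counted as lower but its count gives no support.

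*Asb4*, which encodes an ankyrin repeat protein with a SOCS box, was the imprinted gene that fell in KTR over wild type cells. It gave -2.99, -2.80 and -2.64 in KTR cells, -0.73, -0.89 and -0.49 in wild type cells at 3 h, -0.73, -1.05 and -0.74 in pTV cells, and -1.42 and -1.17 in K314/315R cells. The KTR arrays were below all others, by 4.30-fold against wild type (adjusted p = 0.000167 by limma) and by 3.92-fold against pTV (adjusted p = 4.31e-06). *Airn*, the non-coding RNA that runs antisense to *Igf2r*, likewise passed the filter only through pTV and is counted among the genes lower in KTR. It gave -3.25, -3.85 and -3.74 in pTV cells and -4.40, -4.69 and -5.81 in KTR cells, where 1 of 3 arrays was well above background.

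Of 18 genes of the IGF axis, 13 were tested. *Igfbp3*, the main carrier of IGFs in blood, gave 3.54, 3.09 and 3.38 in wild type cells at 3 h, 2.50, 2.12 and 2.47 at 0 h, and 1.40, 0.98 and 1.16 in pTV cells. The groups did not overlap, and *Igfbp3* rose 4.47-fold in wild type over pTV (adjusted p = 3.92e-06 by limma), 3.95-fold in KTR over pTV (1.02e-05) and 1.96-fold with TNFα (0.00779, a call lost with normexp). *Igfbp7* rose 1.96-fold in KTR over pTV cells (adjusted p = 0.00806). The count of called IGF axis genes there was 2, both higher, where 4.06% of all tested probes were called higher. It fell to 1 without KTR replicate 1, and so small a count is no result about the list. *Igfbp2* was called in no comparison without K314/315R, with a difference of 0.70 in KTR over pTV (adjusted p = 0.137). In K314/315R cells it gave -1.58 and -0.75, 2.47-fold above wild type cells at 3 h, whose arrays were all lower. The K314/315R arrays overlapped with KTR cells (-1.46 in replicate 3) and with wild type cells at 0 h (-1.47 in replicate 1).

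All 24 genes of the list for the G1 phase, in which the kinases inhibited by *Cdkn1c* act, were tested, and 2 were called in each comparison with pTV, where 5.04% (wild type) and 6.01% (KTR) of all tested probes were called. Counts this small are near those shares and are no result about the list. *Ccnd1* (cyclin D1) fell 2.02-fold in wild type over pTV cells (adjusted p = 0.000558 by limma) and 2.01-fold in KTR over pTV cells (0.000687). *Ccne2* (cyclin E2) fell 2.07-fold in wild type over pTV cells (adjusted p = 0.000138), and *Ccnd2* (cyclin D2) 1.83-fold in KTR over pTV cells (9.69e-05). The other genes were not called, and limma called 0 of the 24 in KTR over wild type or with TNFα, and 0 at an unadjusted p under 0.05. These folds lie close to the limits, and the count of 2 in wild type over pTV fell to 0 without wild type 3 h replicate 1 or without pTV replicate 2, while that in KTR over pTV fell to 1 without KTR replicate 3, pTV replicate 1 or pTV replicate 2, and both fell to 0 with normexp.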

How the data were processed

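Total RNA from 14 cultures was hybridised to 1-colour arrays (Agilent Whole Mouse Genome, Cy3). The authors deposited the scanner output of each array, in which Feature Extraction (9.1.1.1 for slides 1 to 3, 9.1.3.1 for slide 4) gives every spot an intensity corrected for background and not scaled between arrays, and also deposited a table of normalized intensity values, which served as an alternative. The Rosetta Resolver analysis named in the paper was not repeated. The p-values measure the spread between these arrays, whose RNA was isolated on different days from the same pools of cells.

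Spots flagged as outliers were dropped, repeated spots were averaged by probe, and log2 intensity minus the 75th percentile of the array was used (percentile intensities of 967 to 1442). To be tested, a probe had to exceed background clearly on all arrays of 1 group or more (22179 of 41174 probes). All 14 arrays entered 1 fit in limma 3.58.1 (R 4.3.3), with two-sided tests and p-values adjusted across the tested probes by Benjamini-Hochberg, and the procedure was tested on simulated data. Calls needed an adjusted p under 0.05 and more than 2-fold (wild type over pTV) or 1.8-fold (elsewhere), after the paper's limits of 1.8 and 0.556. "At least N-fold" sets the mean of the bright group against, on each array of the dim group, either the signal of that probe or, if higher, the dimmest signal well above background. The number of arrays limits the precision.

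The members and gene lists were chosen with earlier results of these data known. Named besides the members were *Dio3*, *Meg3*, *Igfbp2*, *Cdkn1a*, *Cdkn1b*, at most the 4 called genes of each list with the largest fold in each tested comparison (brightest probe), and the 5 genes most like *Cdkn1c*. The marker lists covered fibroblasts and epithelial, endothelial, haematopoietic, skeletal muscle and adipocyte cells. Of the accessions of the 17 probes, 12 were in the RefSeq gene table (GRCm38.p6), with the same symbol. The array files name no genome build.

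Replicate numbers on slides 1 to 3 are the slides. Deviations from the group means correlated at 0.308 to 0.613 where the number was shared (18 pairs) and at -0.51 to 0.0954 in the 36 other pairs, so the numbers pair these arrays. For K314/315R the 8 pairs of equal number gave -0.101 to 0.411 and the 16 others -0.416 to 0.416. Alternatives were normexp (offset 50), quantile normalization, the deposited table, other filters on dim probes, the unadjusted p, only the groups compared, the replicate number or the slide as a block, and leaving out each array.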

Additional observations from a re-analysis of the deposited data

How the results depend on the processing

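Over all alternatives, 87 of 96 counts of called members kept within 1.5 times their value. In KTR over wild type the count was 0 and became 1 with the unadjusted p, without a filter on dim probes, with the replicate block over all arrays or over slides 1 to 3 only, and with slide fitted as a random effect. In KTR over pTV it was 4, was 1 with normexp, and ranged from 2 to 4 when single arrays were left out. With TNFα it was 1 and became 0 with normexp. The replicate block changed no call of a member other than *Mest* in KTR over wild type (adjusted p = 0.0108) and *Igf2* probe 2 in KTR over pTV (adjusted p = 0.00503). Differences that had not passed the test changed sign with normexp: in KTR over wild type *Dlk1* probe 2 (0.16), in KTR over pTV *Mest* (-0.0014) and *Igf2r* (0.074), and with TNFα *Igf2* (0.12 and 0.59), *H19* (0.16 and 0.51, from -0.48 and -0.39) and *Igf2r* (-0.20). *Grb10* in KTR over wild type was -0.0199 in the deposited table. With single arrays left out, differences that crossed 0 ranged in KTR over wild type from -0.10 to 0.16 and -0.0861 to 0.0734 (*Dlk1* probes 1 and 2) and from -0.13 to 0.20 (*Grb10*), in KTR over pTV from -0.66 to 0.14 (*Plagl1* probe 2), and with TNFα from -0.28 to 0.0034 and -0.36 to 0.0754 (*Igf2* probes 1 and 2), -0.23 to 0.0433 (*Dlk1* probe 2) and -0.0094 to 0.21 (*Igf2r*). Across all probes normexp cut the calls from 1118 to 326 in wild type over pTV, from 37 to 1 in KTR over wild type, from 1333 to 400 in KTR over pTV and from 343 to 23 with TNFα. The cause was not tested. Low signal over background limits *Peg3* and the second probes of *Plagl1*, *Igf2* and *H19*.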
